A study of Mus musculus with 8 samples.

Results

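The genes followed here are those of the mouse major histocompatibility complex (MHC) and of antigen presentation. They were chosen by name, as every gene whose symbol begins with H2- (45 genes) together with 11 added genes, B2m, Cd74, Ciita, Nlrc5, Tap1, Tap2, Tapbp, Erap1, Psmb8, Psmb9 and Psmb10, and so make up 56 of the 49212 genes in the count tables. By role they were 3 classical class I genes (H2-K1, H2-D1 and B2m), 30 nonclassical class I genes and 7 genes of class I peptide supply. The nonclassical set held the pseudogenes H2-T-ps, H2-M6-ps and H2-M10.5-ps1. There were also 5 classical class II genes, counting the pseudogene H2-Ea-ps, 6 genes of class II loading and 2 further class II pseudogenes. The rest were 2 transactivators and H2-Ke6, which lies in the region and is not an MHC gene. RNA-seq was performed on effector-type regulatory T cells (eTreg cells) of C57BL/6 mice, sorted as YFP+ cells that also carried CD3, CD4, CD44 and CD45 at the surface, with 2 libraries in each of 4 groups. The WT mice were FoxP3YFP-Cre and the KO mice Prdm1fl/flFoxP3YFP-Cre, so that animals of both genotypes carried the Cre and YFP, driven from the Foxp3 locus, and KO differed by the loss of Prdm1 (the gene of Blimp1) in Foxp3-expressing cells. Mice of 5 to 10 weeks and of both sexes received B16.OVA melanoma cells under the skin and NP-OVA in complete Freund's adjuvant at day 0, with a boost in incomplete Freund's adjuvant at day 7, and tumors were kept to at most 1.5 cm3. Cells came from spleen, after enrichment of CD4 cells on microbeads, or from tumor (tumor-infiltrating lymphocytes, TIL), giving the groups WT spleen, KO spleen, WT TIL and KO TIL. Whether a library held 1 animal or pooled animals was not stated in the sources used here, so the p-values measure only the spread between these samples.

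Libraries held 27834676 to 43903859 counts on genes, and the 56 genes took 2.64 to 3.91% of them. Levels are given as CPM (read counts scaled to a common library total) after TMM scaling, with replicates 1 and 2 of a group in that order, and a floor of 3 counts was 0.0644 to 0.112 CPM. Floors cover counting error only, because PCR copies cannot be told from separate molecules here. Prdm1, the deleted gene, stood at 54.0 and 21.0 CPM in the WT spleen libraries, 40.6 and 53.4 CPM in KO spleen, 108 and 192 CPM in WT TIL and 90.7 and 75.1 CPM in KO TIL. The KO TIL libraries were both below the WT TIL libraries, while in spleen the genotypes overlapped; the counts cover all exons, including any that the floxed allele leaves in place. The purity of the sort was read from marker lists. Summed over 12 myeloid markers, including Lyz2, Csf1r and C1qa, the level was 567 and 2714 CPM in WT spleen, 390 and 1103 CPM in KO spleen, 3805 and 629 CPM in WT TIL and 17790.2 and 2100 CPM in KO TIL. Foxp3 stood at 69.6 and 58.1 CPM in the WT spleen libraries, 43.0 and 56.4 CPM in KO spleen, 25.5 and 60.5 CPM in WT TIL and 10.2 and 2.99 CPM in KO TIL, and Cd4 at 891 and 384 CPM (WT spleen), 1009 and 875 CPM (KO spleen), 807 and 1086 CPM (WT TIL) and 148 and 66.2 CPM (KO TIL). In both genes the KO TIL libraries were the lowest, and KO TIL replicate 2 also carried Cd8a at 1214 CPM against 2.33 to 217 CPM in the other libraries. Melanoma markers, 6 in all, summed to 3.69 to 6.74 CPM in spleen and 830 to 3198 CPM in TIL, and 8 B cell markers summed to 21.9 to 98.4 CPM over all libraries, with Pax5 at 0 in both WT TIL libraries and in KO TIL replicate 2. In bulk samples such as these, fewer cells of a type and less RNA per cell cannot be told apart.

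MHC class I molecules are made by nearly all nucleated cells and present peptides from inside the cell to CD8 T cells. Their heavy chains (H2-K1 and H2-D1 in this strain) pair with B2m, and the peptides are cut by the immunoproteasome (Psmb8, Psmb9 and Psmb10), pumped into the endoplasmic reticulum by Tap1 and Tap2, trimmed by Erap1 and loaded with the help of Tapbp. MHC class II molecules present engulfed antigen to CD4 T cells and are transcribed mainly in dendritic cells, macrophages and B cells, where Ciita switches them on; mouse T cells in general do not transcribe them. H2-Aa and H2-Ab1 encode the chains of I-A, Cd74 is the invariant chain that fills the groove until H2-DM exchanges it for a peptide, and H2-O restrains H2-DM. Nlrc5 is the class I counterpart of Ciita. Lyz2, lysozyme of macrophages and neutrophils, was set beside these genes as the myeloid readout.

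Promoters are shown for the genes that carry the contrast between the classes. RefSeq sequence (GRCm38.p6) held a promoter for 39 of the 56 genes, and the 250 bases before the start of H2-K1, H2-D1 and B2m (class I) and of H2-Aa and H2-Eb1 (class II) are printed 5′ to 3′ along the gene, with capitals marking the motifs searched. These were the Y box letters ATTGG, the X box letters CTNGCAAC, the CRE core TGACG, the interferon response letters GAANNGAAA and the kappaB core GGATTCC, each on both strands. In H2-Aa the CRE core was found on both strands at overlapping positions, just after the X box letters and not overlapping them.
H2-K1, chr17:34000348-34000597, minus strand: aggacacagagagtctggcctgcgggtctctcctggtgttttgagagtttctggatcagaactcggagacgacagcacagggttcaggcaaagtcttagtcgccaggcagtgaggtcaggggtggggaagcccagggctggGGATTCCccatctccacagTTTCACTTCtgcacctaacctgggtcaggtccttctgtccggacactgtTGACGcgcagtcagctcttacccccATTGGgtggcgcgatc
H2-D1, chr17:35262844-35263093, plus strand: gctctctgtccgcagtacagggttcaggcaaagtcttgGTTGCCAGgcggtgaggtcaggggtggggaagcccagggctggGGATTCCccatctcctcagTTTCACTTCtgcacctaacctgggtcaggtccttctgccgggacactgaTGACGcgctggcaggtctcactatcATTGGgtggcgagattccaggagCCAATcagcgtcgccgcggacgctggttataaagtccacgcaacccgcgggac
B2m, chr2:122147437-122147686, plus strand: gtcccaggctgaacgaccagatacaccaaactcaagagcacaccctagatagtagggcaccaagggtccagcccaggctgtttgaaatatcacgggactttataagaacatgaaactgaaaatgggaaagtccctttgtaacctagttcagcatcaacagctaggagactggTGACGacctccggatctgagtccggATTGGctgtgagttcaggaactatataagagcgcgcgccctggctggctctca
H2-Aa, chr17:34287824-34288073, minus strand: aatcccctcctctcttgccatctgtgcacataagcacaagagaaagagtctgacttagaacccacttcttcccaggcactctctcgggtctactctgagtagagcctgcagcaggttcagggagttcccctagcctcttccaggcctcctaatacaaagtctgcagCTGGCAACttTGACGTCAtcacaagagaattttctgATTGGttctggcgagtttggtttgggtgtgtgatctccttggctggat
H2-Eb1, chr17:34305617-34305866, plus strand: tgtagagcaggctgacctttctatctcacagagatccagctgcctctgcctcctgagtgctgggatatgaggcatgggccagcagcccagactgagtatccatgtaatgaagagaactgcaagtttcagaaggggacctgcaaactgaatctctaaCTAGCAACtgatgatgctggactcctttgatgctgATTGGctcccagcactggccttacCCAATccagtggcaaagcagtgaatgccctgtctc

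The kappaB core stood in the H2-K1 and H2-D1 windows with the interferon response letters a few bases after them. Among 32851 promoter windows of the same length, 3.17% held the kappaB core and 6.31% the interferon response letters. The X box letters were in the H2-Aa and H2-Eb1 windows and also in H2-D1, in its distal part, against 2.84% of all windows. All 5 windows held the Y box letters, which are common (33.8% of windows), and 4 of them, all but H2-Eb1, held the CRE core (17.8%). These matches describe letters and not occupied sites.

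Class I transcripts were abundant in every library. B2m, the shared light chain (chr2), reached 7496 and 12780.4 CPM in WT spleen, 7122 and 6860.3 CPM in KO spleen, 9244 and 10898 CPM in WT TIL and 7299 and 7457 CPM in KO TIL. H2-D1 (chr17:35262730-35267499) stood at 7625 and 8565 CPM in the WT spleen libraries, 7601 and 7979 CPM in KO spleen, 7647 and 11200.1 CPM in WT TIL and 5685 and 5849 CPM in KO TIL. H2-K1 (chr17:33996017-34000333) stood at 6019 and 6475 CPM (WT spleen), 5956 and 5863 CPM (KO spleen), 5413 and 6983 CPM (WT TIL) and 3221 and 3731 CPM (KO TIL). WT TIL replicate 2 was the highest for both heavy chains and the KO TIL libraries were the lowest, but the whole span over the 8 libraries was 1.97-fold for H2-D1, 2.17-fold for H2-K1 and 1.86-fold for B2m. Per kilobase of exons, H2-K1 and H2-D1 together (the class I level) gave 5264 and 5804 CPM per kb in WT spleen, 5231 and 5342 in KO spleen, 5041 and 7021 in WT TIL and 3439 and 3699 in KO TIL. H2-D1 made 56.2 to 64.1% of this sum.

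Class II transcripts were present in every library and spread far more widely. H2-Ab1 (chr17:34263209-34269418), the beta chain of I-A, stood at 21.7 and 239.9 CPM in WT spleen, 92.5 and 142 CPM in KO spleen, 533 and 106 CPM in WT TIL and 3752 and 589.6 CPM in KO TIL. H2-Aa (chr17:34282744-34287827), its alpha chain, stood at 14.3 and 179.6 CPM in the WT spleen libraries, 69.2 and 109 CPM in KO spleen, 284 and 57.4 CPM in WT TIL and 2469 and 377 CPM in KO TIL. H2-Eb1 (chr17:34305877-34316199), the I-E beta chain, stood at 9.28 and 97.7 CPM (WT spleen), 41.4 and 63.1 CPM (KO spleen), 170.3 and 37.0 CPM (WT TIL) and 1433 and 213 CPM (KO TIL). In all 3 genes KO TIL replicate 1 was the highest library and WT spleen replicate 1 the lowest, and the span was 173-fold for H2-Ab1, 173-fold for H2-Aa and 154-fold for H2-Eb1. H2-Ea-ps, the I-E alpha pseudogene of this strain, had 0 counts in all 8 libraries.

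Taken per kilobase, the sum of H2-Aa, H2-Ab1 and H2-Eb1 (the class II level) was 28.7 and 325 CPM per kb in WT spleen, 128 and 198 in KO spleen, 621 and 126 in WT TIL and 4820 and 742 in KO TIL, a 168-fold span against 2.04-fold for the class I level. The 3 genes kept near-constant proportions across this range, with H2-Ab1 making 43.9 to 52.4% of the sum, H2-Aa 24.2 to 29.5% and H2-Eb1 23.2 to 27.3%. Class II was 0.545 and 5.60% of class I in WT spleen, 2.45 and 3.71% in KO spleen, 12.3 and 1.80% in WT TIL and 140 and 20.0% in KO TIL. KO TIL replicate 1 was thus the single library in which class II exceeded class I. As group means, the log2 ratio of class II to class I was -5.84 ± 2.38 (SD, n = 2) in WT spleen, -5.05 ± 0.42 in KO spleen, -4.41 ± 1.96 in WT TIL and -0.92 ± 1.98 in KO TIL. In WT spleen, WT TIL and KO TIL the SD exceeded every difference among the means of WT spleen, KO spleen and WT TIL, while the mean of KO TIL stood above those of the other groups by more than any of the SDs.

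**Figure D1:**
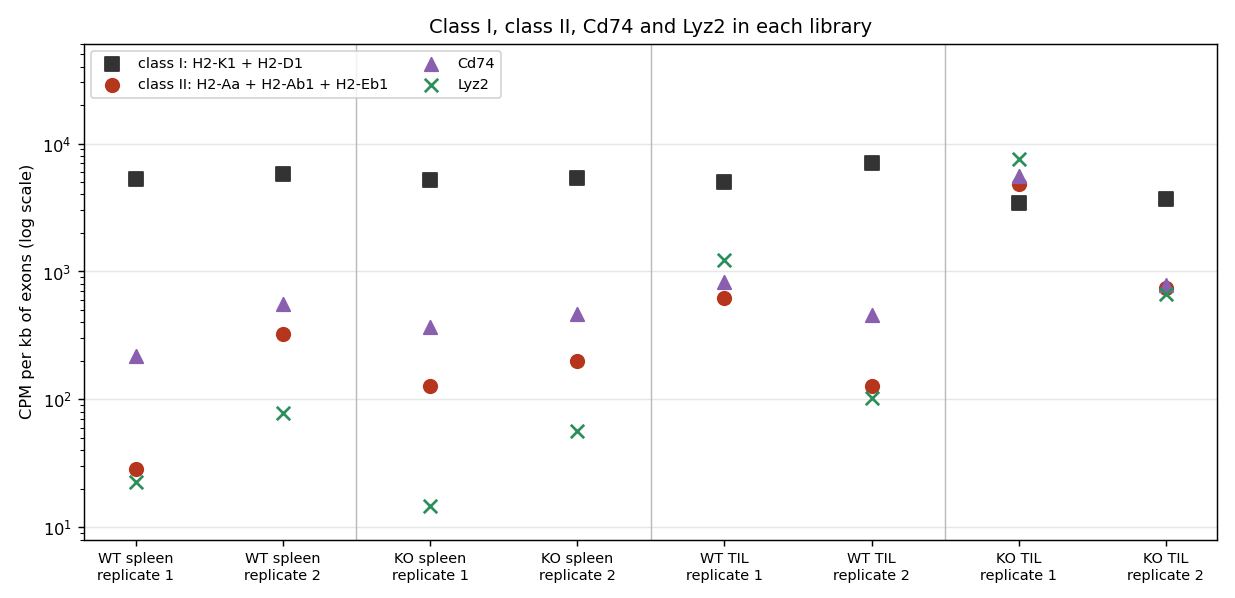
Level of class I (H2-K1 and H2-D1 summed), class II (H2-Aa, H2-Ab1 and H2-Eb1 summed), Cd74 and Lyz2 in each of the 8 libraries, in CPM per kb of exons on a log axis. The class I squares stay between 3439 and 7021, while the class II circles run from 28.7 to 4820 and exceed class I in KO TIL replicate 1 alone.

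Lyz2 varied with class II from library to library. It stood at 28.5 and 98.9 CPM in WT spleen, 18.5 and 71.3 CPM in KO spleen, 1566 and 129.7 CPM in WT TIL and 9546 and 839.9 CPM in KO TIL, a 516-fold span. The 3 libraries highest in Lyz2 (KO TIL replicate 1, WT TIL replicate 1 and KO TIL replicate 2) were also the 3 highest in class II, in Cd74 and in Ciita, although class II put KO TIL replicate 2 ahead of WT TIL replicate 1. The order was looser below them, where WT TIL replicate 2 ranked 4 in Lyz2 and 7 in class II. Per kilobase, class II over Lyz2 was 1.27 to 8.78 in the 4 spleen libraries and 0.502 to 1.23 in the 4 TIL libraries, ranges that stood apart only narrowly, and Lyz2 itself did not overlap between the tissues, so the ratio was not compared at a common level of Lyz2. The summed myeloid markers were also highest in KO TIL replicate 1 and WT TIL replicate 1, but they put WT spleen replicate 2 (2714 CPM) above KO TIL replicate 2 (2100 CPM) and well above WT TIL replicate 2 (629 CPM), whereas in Lyz2 it was below both. Dendritic cell markers (8 genes) summed to 15.2 to 29.7 CPM in spleen and 63.3 to 241 CPM in TIL. The part of either marker list in the class II level was not tested.

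**Figure D2:**
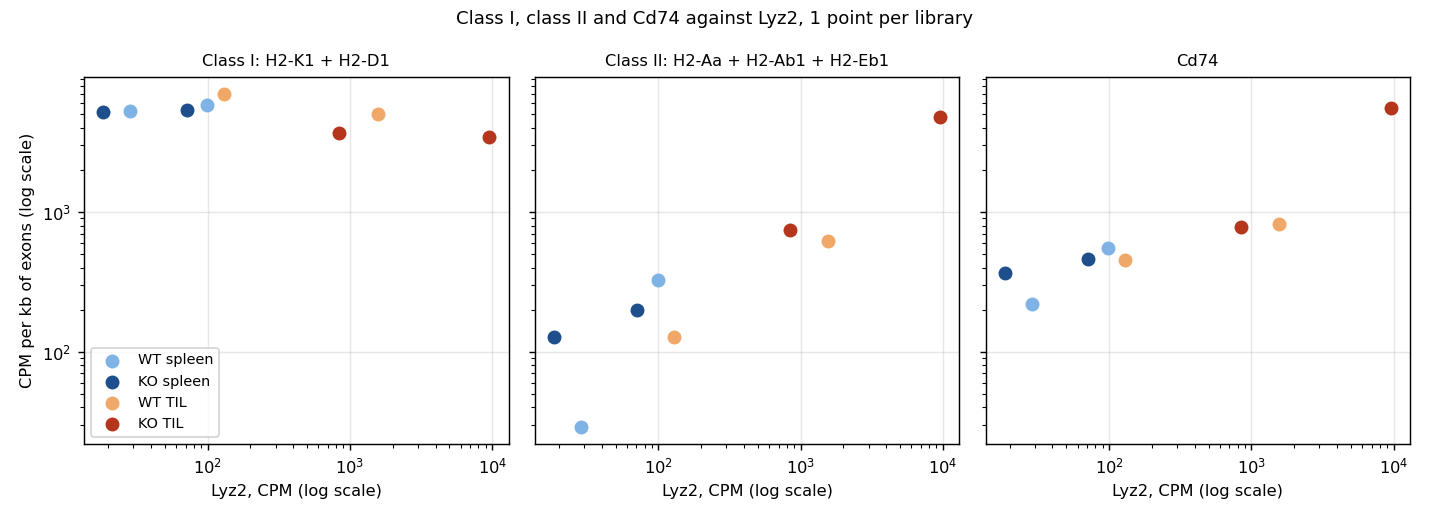
Class I, class II and Cd74 (CPM per kb of exons, log axis) against Lyz2 (CPM, log axis), with 1 point per library colored by group. Class II and Cd74 are highest at the right, in KO TIL replicate 1 with Lyz2 at 9546 CPM, whereas class I has its lowest value, 3439, in that same library.

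Cd74 had a higher base level than the class II genes it serves. It stood at 309 and 779 CPM in the WT spleen libraries, 515 and 652 CPM in KO spleen, 1157 and 644 CPM in WT TIL and 7844 and 1108 CPM in KO TIL, a 25.4-fold span against 168-fold for the class II level. Cd74 per kilobase was 7.64 times the class II level in WT spleen replicate 1, the library with the least class II, and 1.06 and 1.15 times in the KO TIL libraries. The other libraries lay between 1.32 and 3.61. Ciita, the class II transactivator, stood at 1.14 and 4.24 CPM (WT spleen), 3.05 and 5.14 CPM (KO spleen), 9.88 and 4.28 CPM (WT TIL) and 81.1 and 6.43 CPM (KO TIL), again with KO TIL replicate 1 far above the rest and a 71.3-fold span. Nlrc5, the class I transactivator, stood at 137 and 52.7 CPM in WT spleen, 125 and 123 CPM in KO spleen, 137 and 147 CPM in WT TIL and 164 and 173 CPM in KO TIL. All Nlrc5 values but that of WT spleen replicate 2 lay between 123 and 173 CPM, a range that holds no contrast of the size seen in Ciita.

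**Figure D3:**
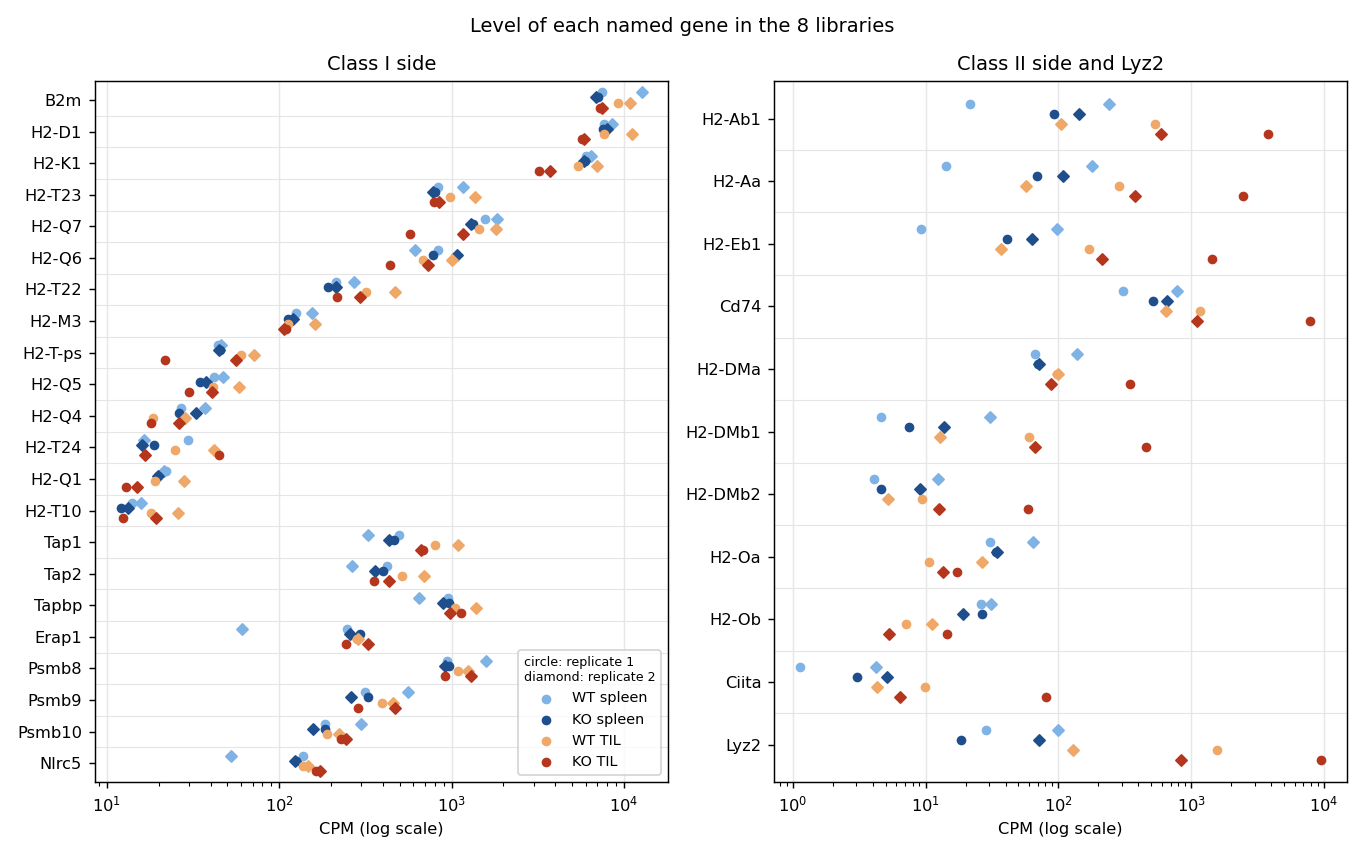
CPM (log axis) of the class I side (left) and the class II side with Lyz2 (right) in each library, with circles for replicate 1 and diamonds for replicate 2, colored by group. Class I genes form tight clusters, for example 3221 to 6983 CPM for H2-K1, whereas class II genes fan out, for example 14.3 to 2469 CPM for H2-Aa.

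Most nonclassical class I genes were either silent or steady. Of the 56 genes, 11 had 0 counts in all 8 libraries, namely 8 of the 14 H2-M genes, H2-Pa, H2-Pb and H2-Ea-ps, 7 had 1 to 79 counts in total and 38 had 80 or more. H2-M3, which presents N-formylated peptides, was the well-expressed H2-M gene, at 107 to 161 CPM. H2-T23, the gene of Qa-1, lay between 782 and 1364 CPM, H2-Q7 between 577 and 1847 CPM and H2-Q6 between 441 and 1075 CPM. H2-T22, a ligand of some gamma-delta T cells, lay between 193 and 469 CPM and the related H2-T10 between 12.1 and 25.8 CPM. Near-identical copies make the split within these families uncertain, since only uniquely placed reads were counted. Of the 100-base stretches in the longest annotated transcript, 12.9% in H2-Q7, 10.8% in H2-Q6, 9.38% in H2-T22 and 4.64% in H2-D1 also occurred in another gene, as did 13.7% in H2-DMb1 and 12.9% in H2-DMb2, against 0% in H2-K1, B2m, H2-Aa, H2-Ab1, H2-Eb1 and Cd74.

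KO TIL was compared with WT TIL to ask what loss of Blimp1 does to these genes in the tumor. Class II genes were higher and class I genes lower in the KO TIL libraries, and no difference passed the test. By edgeR's quasi-likelihood test (adjusted p of 0.05 and absolute log2 fold change over 1), 0 of the 38 members tested were called, as were 0 of 15935 genes in all (0%). At an unadjusted p under 0.05 there were 5 members, all higher (6.34% of all genes were so, and 9.87% in either direction), and DESeq2 called 3, H2-Aa, H2-Eb1 and H2-M2, all higher, against 4.68% of all genes and 3.48% of them higher. H2-Aa differed by 3.06 on the log2 scale (SE 1.16, edgeR adjusted p = 0.483), H2-Eb1 by 2.99 (SE 1.14, adjusted p = 0.486) and H2-Ab1 by 2.76 (SE 1.14, adjusted p = 0.527). Of the 10 class II members tested, 9 had a fitted value above 0, with a median of 2.49 against 0.04 over all genes tested. In 6 of them each KO TIL value exceeded each WT TIL value, a pattern shown by 18.0% of all genes.

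The size of this difference rested on KO TIL replicate 1. With that library left out, H2-Aa differed by 1.14, H2-Eb1 by 1.04 and H2-Ab1 by 0.88 on the log2 scale, and Cd74 by 0.30 in place of 2.31 (SE 0.95, edgeR adjusted p = 0.525). Ciita went from 2.62 (SE 1.18, adjusted p = 0.571) to -0.14 and Lyz2 from 2.61 (SE 1.52, adjusted p = 0.680) to -0.01. H2-Ab1 in KO TIL replicate 2, at 590 CPM, was close to the 533 CPM of WT TIL replicate 1. Leaving out WT TIL replicate 1 instead gave 4.62 for H2-Aa and 4.35 for H2-Ab1. The summed myeloid markers given above were also highest in KO TIL replicate 1. Unlike H2-Ab1, they were lower in KO TIL replicate 2 (2100 CPM) than in WT TIL replicate 1 (3805 CPM). The part of the myeloid markers in these differences was not tested.

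The loading genes split into those that went with class II and those that did not. H2-DMb1, a chain of the peptide exchanger H2-DM, stood at 4.64 and 30.8 CPM in the WT spleen libraries, 7.47 and 13.7 CPM in KO spleen, 60.6 and 12.9 CPM in WT TIL and 454 and 66.2 CPM in KO TIL. H2-DMa, its partner chain, stood at 66.6 and 139 CPM (WT spleen), 69.7 and 72.0 CPM (KO spleen), 98.1 and 99.9 CPM (WT TIL) and 346 and 87.9 CPM (KO TIL), and H2-DMb2 at 4.1 and 12.5 CPM in WT spleen, 4.59 and 9.07 CPM in KO spleen, 9.45 and 5.23 CPM in WT TIL and 59.4 and 12.7 CPM in KO TIL. H2-DMb1 followed class II over the 8 libraries (97.9-fold span), while H2-DMa lay between 66.6 and 139 CPM outside KO TIL replicate 1. In KO against WT TIL the log2 differences were 2.82 (SE 1.14, edgeR adjusted p = 0.515) for H2-DMb1, 2.29 (SE 0.81, adjusted p = 0.453) for H2-DMb2 and 1.13 (SE 0.65, adjusted p = 0.676) for H2-DMa, and without KO TIL replicate 1 they were 0.85, 0.79 and -0.17. The H2-O chains gave -0.28 for H2-Oa (SE 0.53, adjusted p = 0.951) and 0.10 for H2-Ob (SE 0.61, adjusted p = 0.986).

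On the class I side, 21 of the 25 members tested had a fitted value below 0 in KO against WT TIL, with a median of -0.49. Both KO TIL libraries lay below both WT TIL libraries in 12 of the 25, against 19.4% of all genes, and above them in 2, H2-M2 and Psmb10. H2-K1 was at 3476 ± 361 CPM in KO TIL and 6198 ± 1111 CPM in WT TIL (mean ± SD, n = 2 each), a log2 difference of -0.84 (SE 0.37, edgeR adjusted p = 0.564). The values were -0.71 for H2-D1 (SE 0.40, adjusted p = 0.666) and -0.45 for B2m (SE 0.37, adjusted p = 0.823). H2-K1 ranged from -1.02 to -0.65 when each library was left out in turn, so its sign did not hang on a single library, but the adjusted p was never under the threshold. H2-Q7 gave -0.91 (SE 0.45, adjusted p = 0.610), H2-T22 -0.64 (SE 0.35, adjusted p = 0.654) and H2-T23 -0.51 (SE 0.34, adjusted p = 0.731).

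The genes of peptide supply differed less. Tap1 stood at 498 and 327 CPM in the WT spleen libraries, 463 and 436 CPM in KO spleen, 802 and 1089 CPM in WT TIL and 685 and 668 CPM in KO TIL, and Tap2 at 424 and 263 CPM (WT spleen), 399 and 361 CPM (KO spleen), 513 and 695 CPM (WT TIL) and 355 and 436 CPM (KO TIL). KO TIL was below WT TIL in both genes without overlap, by -0.49 for Tap1 (SE 0.33, edgeR adjusted p = 0.738) and -0.61 for Tap2 (SE 0.33, adjusted p = 0.643). Tapbp, Erap1, Psmb8, Psmb9 and Psmb10 had fitted values from -0.21 to 0.19, and Nlrc5 gave 0.24 (SE 0.27, adjusted p = 0.894). CD4 T cell and Treg markers (7 genes) summed to 7108 and 9674 CPM in WT TIL and 1798 and 2409 CPM in KO TIL, lower in KO TIL as class I was. Ctla4 alone gave 4136 and 5719 CPM in WT TIL and 461 and 917 CPM in KO TIL. Cd44, also in the list, was at 358 and 306 CPM in WT TIL and 734 and 254 CPM in KO TIL. In spleen the sum was 3332 to 3930 CPM, below WT TIL, although the class I level there lay within the WT TIL range. The part of these markers in class I was not tested.

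H2-M2, a nonclassical class I gene named here after its values were seen, departed from its class. It had 5, 39, 7 and 32 counts in WT spleen and KO spleen, 8 and 1 in WT TIL and 1021 and 51 in KO TIL, which is 32.4 and 1.91 CPM in KO TIL. As in class II, KO TIL replicate 1 was highest and WT spleen replicate 2 was above replicate 1, but WT TIL replicate 1, above all spleen libraries in class II, was here at 0.287 CPM, below replicate 2 of both spleen groups. The fitted log2 difference between KO and WT TIL was 6.72 (SE 1.75, edgeR adjusted p = 0.309), and it was 3.55 without KO TIL replicate 1 and 8.81 without WT TIL replicate 1. The last value rests on the 1 count of WT TIL replicate 2, which is under the floor of 3 counts, so its size is not well set.

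In spleen the question was whether the same loss acts away from the tumor. No member was called by edgeR among the 40 tested, with 0 of 16583 genes called in all (0%), none reached an unadjusted p under 0.05 (2.95% of all genes did) and DESeq2 called 0 members against 0.416% of all genes. Both KO spleen libraries fell inside the range of the WT spleen pair for H2-Aa, H2-Ab1 and H2-Eb1, and H2-Aa gave -0.13 (SE 0.96, edgeR adjusted p = 0.974). The WT pair was itself 11.3-fold apart in the class II level. Without WT spleen replicate 2, which had the higher class II, H2-Aa gave 2.64 and H2-Ab1 2.44 on the log2 scale and 3 members were called, both of these and H2-Eb1, higher in KO, against 0.267% of all genes. Without WT spleen replicate 1, H2-Aa gave -0.95 and the 3 members called were Nlrc5, Erap1 and H2-DMb1, among 22.1% of all genes. The spleen data therefore gave opposite signs for class II according to the WT library taken as reference.

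WT spleen replicate 2 stood apart from its partner in another way that touched class I supply. Erap1, the trimming peptidase, stood at 246 and 60.5 CPM in WT spleen, 294 and 259 CPM in KO spleen, 282 and 286 CPM in WT TIL and 243 and 327 CPM in KO TIL, with that library several times below all others. Nlrc5, Tap1, Tap2 and Tapbp also had their lowest values there, at 52.7, 327, 263 and 648 CPM, whereas B2m, Psmb8, Psmb9 and Psmb10 had their highest, at 12780.4, 1593, 556 and 299.8 CPM. Exon lengths were 3296 to 8493 bases in the former set and 860 to 3659 bases in the latter, and over 8981 genes the log2 ratio of replicate 2 to replicate 1 fell with exon length (Spearman rho -0.48), with a median of 0.50 in the 25% of genes with the shortest exons and -0.65 in the 25% with the longest. Among the other 3 groups this rho was -0.23 to 0.05. The KO against WT spleen values of Erap1 (0.85, SE 0.62, edgeR adjusted p = 0.878) and B2m (-0.54, SE 0.42, adjusted p = 0.878) became 0.17 and -0.10 without that library.

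**Figure D4:**
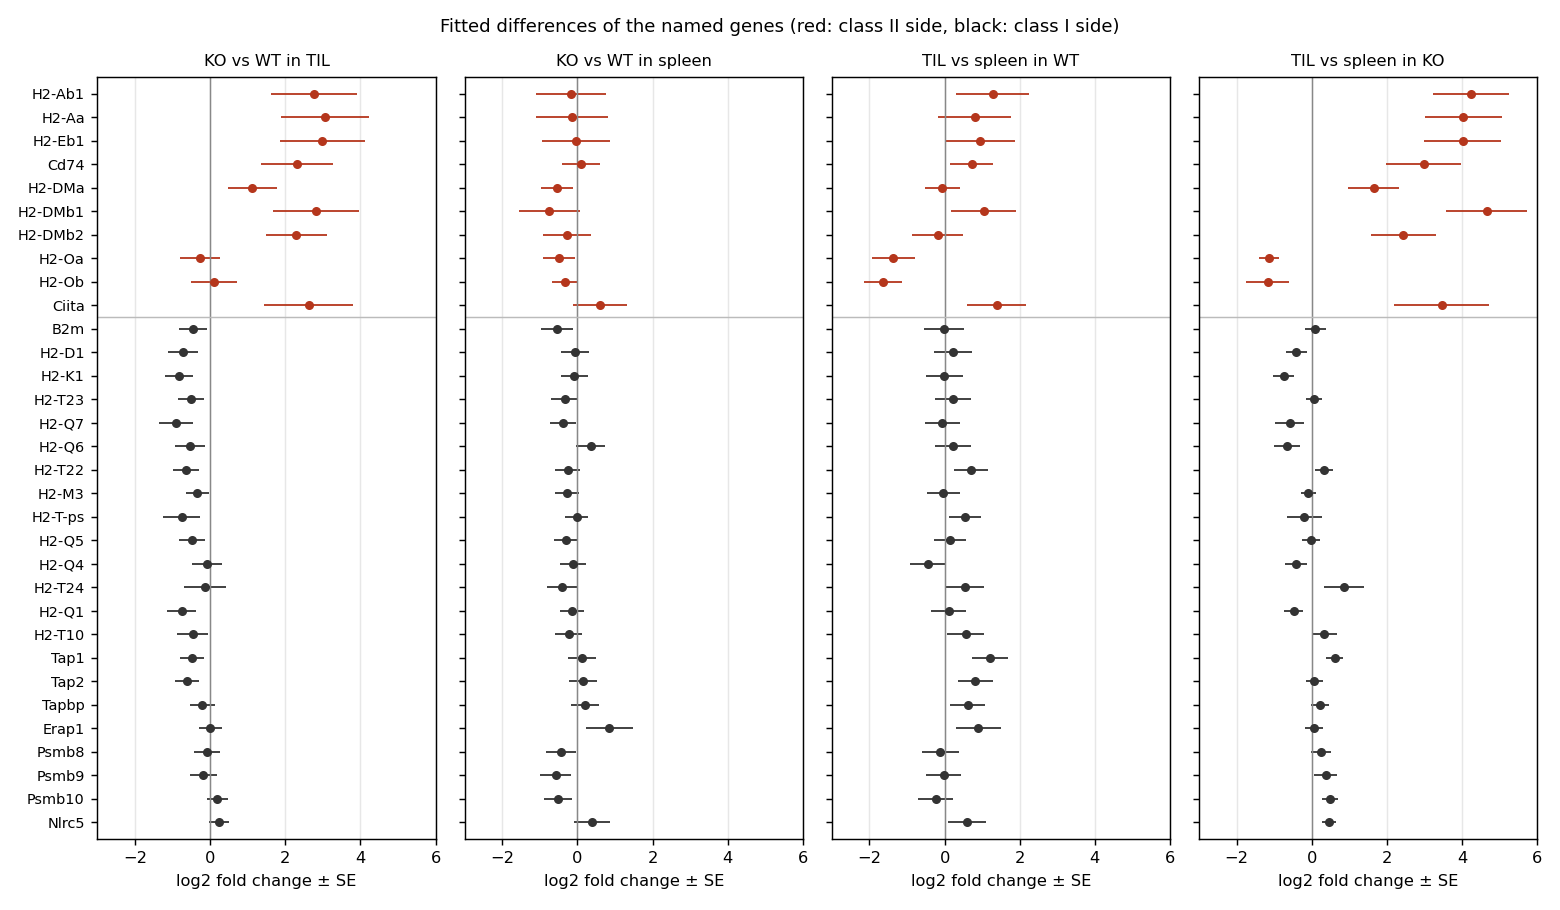
Fitted log2 fold change with its standard error (edgeR, 4 libraries per comparison) for the named class II genes (red) and class I genes (black) in the 4 comparisons between pairs of groups. Class II genes sit at 2.76 to 3.06 for H2-Ab1, H2-Eb1 and H2-Aa in KO against WT TIL and near 0 in spleen, and no point passed the test.

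TIL and spleen were next compared within each genotype; these comparisons reuse the libraries of the preceding ones, so each set of values stands by itself. In WT, edgeR called 0 of 38 members although 5.97% of all 16427 genes passed. At an unadjusted p under 0.05 there were 3 members, Tap1 higher (10.4% of all genes) and H2-Oa and H2-Ob lower (10.1%), or 20.5% in either direction, and DESeq2 called H2-Ob as lower (3.42% of all genes, 9.91% in either direction). Class II was higher in WT TIL replicate 1 than in any spleen library, while WT TIL replicate 2 lay within the spleen range for H2-Ab1. H2-Ab1 gave 1.28 (SE 0.97, edgeR adjusted p = 0.50) and -0.29 without WT TIL replicate 1, and Cd74 gave 0.72 (SE 0.57, adjusted p = 0.518).

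H2-Oa and H2-Ob, the chains of the H2-DM inhibitor, were lower in TIL than in spleen in both genotypes. In KO the other 8 of the 10 class II members tested had fitted values above 0. In WT the 10 members split, with 5 above 0 and 5 below, H2-Oa and H2-Ob among those below. H2-Oa stood at 30.7 and 64.8 CPM in the WT spleen libraries, 34.0 and 34.4 CPM in KO spleen, 10.7 and 26.5 CPM in WT TIL and 17.3 and 13.5 CPM in KO TIL, and H2-Ob at 26.3 and 30.8 CPM (WT spleen), 26.6 and 19.2 CPM (KO spleen), 7.18 and 11.2 CPM (WT TIL) and 14.5 and 5.31 CPM (KO TIL). All 4 TIL libraries were below all 4 spleen libraries in both genes; lower values without overlap were found for 27.0% of all genes in WT and 32.9% in KO. In WT, H2-Ob gave -1.63 (SE 0.50, edgeR adjusted p = 0.0905) and H2-Oa -1.37 (SE 0.58, adjusted p = 0.211). In KO, H2-Ob gave -1.18 (SE 0.57, adjusted p = 0.237) and H2-Oa -1.14 (SE 0.27, adjusted p = 0.0752). No value of H2-Oa or H2-Ob changed sign when any library of the comparison was left out. The B cell marker Cd79b was 36.9 to 76.2 CPM in spleen and 7.07 to 22.5 CPM in TIL, also without overlap, and its part in the H2-O values was not tested.

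**Figure D5:**
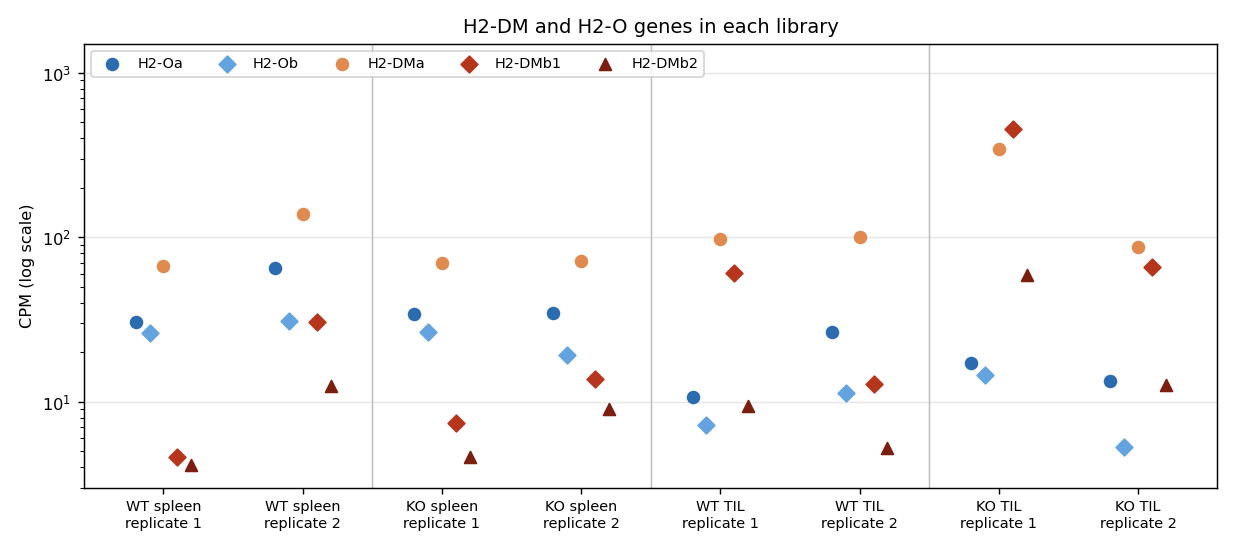
CPM (log axis) of the H2-DM genes and the H2-O genes in each library. H2-Oa and H2-Ob are lower in every TIL library than in every spleen library, whereas H2-DMb1 and H2-DMb2 have their highest values in KO TIL replicate 1, at 454 and 59.4 CPM.

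Several genes of class I peptide supply had higher values in WT TIL than in WT spleen. Tap1 gave 1.20 on the log2 scale (SE 0.48, edgeR adjusted p = 0.187) and Tap2 0.82 (SE 0.47, adjusted p = 0.369), neither past the threshold. The nonclassical class I gene H2-T22, not a gene of peptide supply, gave 0.70 (SE 0.46, edgeR adjusted p = 0.433), also not past it. Of the 7 genes of peptide supply, 4 (Tap1, Tap2, Tapbp and Erap1) had both TIL libraries above both spleen libraries, against 25.1% of all genes, and these are the genes lowest in WT spleen replicate 2. Without that library Tap1 gave 0.97 and Tap2 0.55. The classical class I genes gave -0.01 for H2-K1, 0.22 for H2-D1 and -0.01 for B2m.

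In KO, class II genes stood higher in TIL than in spleen, and H2-Aa, H2-Ab1 and H2-Eb1 differed more than in the other comparisons. In H2-Aa, H2-Ab1, H2-Eb1, Cd74, Ciita, H2-DMa, H2-DMb1 and H2-DMb2, both KO TIL libraries were above both KO spleen libraries, as in 30.6% of all genes. H2-DMb1 gave 4.65 on the log2 scale (SE 1.09, edgeR adjusted p = 0.0745), H2-Ab1 4.24 (SE 1.02, adjusted p = 0.0766), H2-Aa 4.03 (SE 1.02, adjusted p = 0.0826) and H2-Eb1 4.01 (SE 1.02, adjusted p = 0.0835). Cd74 gave 2.98 (SE 0.99, adjusted p = 0.128) and Ciita 3.46 (SE 1.26, adjusted p = 0.149). Lyz2 gave 6.89 (SE 1.61, adjusted p = 0.0747), larger than any of them.

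By edgeR 0 of 40 members were called in KO, against 1.35% of 16933 genes, and at an unadjusted p under 0.05 there were 9 higher (17.4% of all genes) and 3 lower (13.7%), or 31.0% in either direction. DESeq2 called 10 (19.7% of all genes), of which 8 were higher (Ciita, H2-DMb2, H2-DMb1, H2-Ab1, H2-Aa, H2-Eb1, H2-M2 and Cd74, against 13.1% of all genes) and 2 lower (H2-Oa and H2-Q2, against 6.58%). With KO TIL replicate 1 left out, edgeR called 8 members, 5 higher and 3 lower, against 19.7% of all genes in that fit. H2-Ab1, H2-Aa, H2-Eb1 and H2-DMb1 were among those higher, at 2.32, 2.08, 2.02 and 2.64, whereas Cd74 dropped to 0.92, Ciita to 0.65, H2-DMa to 0.31 and H2-DMb2 to 0.89 and none of these was called. With KO TIL replicate 2 left out it called 14, 11 higher and 3 lower, against 26.8% of all genes. In both fits the single remaining KO TIL library is assumed to vary like the KO spleen pair. The class I heavy chains went the other way, by -0.75 for H2-K1 (SE 0.27, edgeR adjusted p = 0.146) and -0.42 for H2-D1 (SE 0.28, adjusted p = 0.371), while B2m gave 0.09. Class I as a whole did not, with 15 of the 27 members tested above 0 and 12 below (median 0.06). All 7 genes of peptide supply were above 0, and Tap1 gave 0.60 (SE 0.21, edgeR adjusted p = 0.142).

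Whether the genotype difference itself differed between tumor and spleen was tested as an interaction over all 8 libraries. No member of the 40 tested was called by edgeR (0% of 17870 genes) or by DESeq2 (1.85% of genes), and 4, all higher, had an unadjusted p under 0.05 (5.08% of genes higher, 7.83% in either direction). The interaction was 3.18 for H2-Aa (SE 1.71, edgeR adjusted p = 0.731), 2.21 for Cd74 (SE 1.15, adjusted p = 0.716) and -0.75 for H2-K1 (SE 0.47, adjusted p = 0.788). The H2-Aa value was 0.41 without WT spleen replicate 2 and 1.25 without KO TIL replicate 1, and that of Cd74 was 1.39 and 0.18 under the same omissions. A difference between tissues in the effect of Prdm1 loss on class II or class I was thus not shown at this number of libraries.

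The genes around the pathway were followed in 37 further genes, 13 of class I assembly, 8 of class II peptide supply and turnover and 16 of transcription and interferon input. By edgeR none was called in KO against WT in TIL or spleen or in the interaction, where 0% of all genes were called in each. At an unadjusted edgeR p under 0.05 there were 3, 0 and 3, against 9.87%, 2.95% and 7.83% of all genes. DESeq2 called 0 in each, against 4.68%, 0.416% and 1.85% of all genes. In WT TIL against spleen 3 rose (5.97% of all genes were called), namely Ifng (log2 2.43, SE 0.46, edgeR adjusted p = 0.0135), the interferon that induces both classes, Ctsl (3.09, SE 0.68, adjusted p = 0.0261), a lysosomal protease, and Irf8 (1.87, SE 0.46, adjusted p = 0.0413), a transcription factor of myeloid and B cells. In KO TIL against spleen Irf8 rose (3.45, SE 0.23, adjusted p = 0.0332) and no other gene of the 37 was called, while 1.35% of all genes were. DESeq2 called 4 of the 37 in WT and 9 in KO, where 9.91% and 19.7% of all genes were called. Irf8 stood at 53.6 and 71.6 CPM in WT spleen, 36.5 and 39.0 CPM in KO spleen, 274 and 186 CPM in WT TIL and 426 and 389 CPM in KO TIL, without overlap between the tissues. In KO against WT, the smallest p-values were those of Jak2, a kinase of interferon receptors (1.21, SE 0.38, edgeR adjusted p = 0.393), and March1, a ligase that removes class II from the surface (2.89, SE 1.14, adjusted p = 0.505), in TIL, and of Irf8 (-0.74, SE 0.33, adjusted p = 0.878) and Psme1 (-0.58, SE 0.38, adjusted p = 0.878) in spleen. Over the 8 genes of class II peptide supply and turnover the median log2 difference in KO against WT TIL was 1.39, with all 8 above 0, and over the 13 of class I assembly it was -0.17, against 0.04 over all genes tested. Only 2 of the 8 were higher in KO TIL without overlap (18.0% of all genes were). The proteases Ctss and Ctsb, at 2842 and 5843 CPM in KO TIL replicate 1, were at 525 and 1543 CPM in KO TIL replicate 2, below both WT TIL libraries, as was Sppl2a, and Ctsl, Lgmn and Ifi30 in KO TIL replicate 2 lay within the WT TIL range.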

How the data were processed

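RNA-seq counts of 8 libraries (2 in each of 4 groups) were analysed. Per the study's methods and the submitters' processing notes, the authors trimmed reads with Trimmomatic 0.36, aligned them to GRCm38 with STAR 2.5.2b and counted uniquely placed reads over exons with featureCounts (Subread 1.5.2), and they deposited raw counts per gene. The release of the annotation and the strand setting are not given in the sources used here, so overlapping genes and near-identical MHC genes are uncertain. A deposited table of normalized counts was not used here.

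Groups came from the sample labels. CPM was scaled by TMM and divided by exon length where genes were compared. Each comparison was fitted on its 4 libraries (all 8 for the interaction) with edgeR 4.0.16 (quasi-likelihood, filterByExpr with a minimum count of 10, limma 3.58.1, R 4.3.3) with calls at p 0.05 after Benjamini-Hochberg adjustment over all genes tested and a log2 fold change above 1 in size. DESeq2 1.42.0, other scalings and filters, a stricter fold change, a replicate block and the omission of each library were alternatives. The fits were tested on simulated data with known, large changes and the same low spread in every gene and library. That spread was smaller than the one between the TIL replicates in class II. The simulation therefore does not show how the fits perform at the spread of these data. Replicates of a group differed by more than counting noise (chi-square over its degrees of freedom 37.2 to 344), so none was counted as a repeated library.

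The members and all gene lists were chosen with earlier results of these data known. Named genes were 21 core genes (H2-K1, H2-D1, B2m, the expressed class II and loading genes, Cd74, the transactivators and the genes of peptide supply), H2-Q, H2-T and H2-M genes with a mean of at least 10 CPM, and, of the 37 further pathway genes, up to 5 past the threshold in a comparison or else the 2 with the smallest p. H2-M2, H2-Q2, H2-Q10, H2-Eb2 and H2-Ke6 fall outside that rule. Promoters came from RefSeq (GRCm38.p6), and transcripts for the 100-base stretches from GENCODE (GRCm38), both read with Python 3.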

Additional observations from a re-analysis of the deposited data

How the results depend on the processing

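The counts of members called depended on the tool and filter. For KO against WT in TIL, edgeR called 0, DESeq2 called 3 on the same libraries (4.68% of all genes) and 6 on all 8 libraries (5.61%), and edgeR without a filter on low counts called 8 (4.04%). For TIL against spleen in KO the same alternatives gave 10 (19.7%), 11 (16.4%) and 9 (11.6%) in place of 0. For TIL against spleen in WT, DESeq2 gave 1 on the same libraries (9.91%) and 2 on all 8 (11.5%). For the interaction, edgeR without a filter gave 7 (2.60%). Leaving out each library gave 0 to 0 members in TIL, 0 to 3 in spleen, 0 to 1 for TIL against spleen in WT, 0 to 14 in KO and 0 to 0 for the interaction; these fits leave 1 library in a group, assumed to vary like the other groups. The cause of the differences between tools was not tested. Fitting the replicate number as a block called 5 members in TIL (H2-DMb1, H2-Ab1, H2-Aa, H2-Eb1 and H2-M2), against 4.57% of all genes, and 0 in the other comparisons. The labels do not tie the numbers to animals or days, and the deviations of same-numbered libraries from their group means correlated at 0.30 in TIL, 0.21 in spleen, -0.02 in WT and -0.27 in KO, so the numbers were not taken as pairs.

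Signs turned in these cases. In KO against WT TIL, leaving out each library in turn gave -0.17 to 1.78 for H2-DMa, -0.14 to 3.50 for Ciita and -0.014 to 5.31 for Lyz2, each lowest without KO TIL replicate 1. In spleen, H2-Aa became 0.76 with the replicate block, 0.20 without KO spleen replicate 1 and 2.64 without WT spleen replicate 2, and H2-Ab1 became 0.66, 0.15 and 2.44 under the same changes, with lowest values of -0.95 and -0.97 without WT spleen replicate 1. Lyz2 in spleen ran from -1.77 to 0.66 and was 0.19 without KO spleen replicate 1. H2-Ab1 for TIL against spleen in WT ran from -0.29 without WT TIL replicate 1 to 3.93, and the interaction of B2m from -0.35 without WT spleen replicate 2 to 0.42. The log2 ratio of class II to class I in KO spleen moved from -5.05 to -5.76 without exon length, -3.21 with Cd74 in the class II sum and -5.65 as a mean of log2 values, each by more than the spread of its replicates. Depth did not limit the genes named by the rule above, which had counts well above the floor in every library, while 18 members had fewer than 80 counts in all. H2-M2, outside that rule, had 1 count in WT TIL replicate 2, under the floor of 3 counts.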

Other observations

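H2-Q10 and H2-Q2, a pair of nonclassical class I genes singled out after their values were seen, stood apart from the steady class I genes. H2-Q10 had 20.0 CPM in KO TIL replicate 2 and 3.82 to 6.85 CPM in the other 7 libraries, and its 100-base stretches were shared with other genes for 8.80% of its transcript. H2-Q2 had 6.42 to 9.66 CPM in spleen and 1.30 to 6.11 CPM in TIL, with every TIL library below every spleen library. H2-Ke6, not an MHC gene, had 1.59 to 3.37 CPM in TIL and 3.24 to 6.31 CPM in spleen, and 92.0% of its transcript's stretches also occur in an overlapping gene.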
